A study of Mus musculus with 12 samples.

Results

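Small RNA sequences listed in 5′ untranslated regions (5′ UTRs, the stretch of an mRNA before its coding sequence) were examined in control DN3 thymocytes of the mouse. The authors' list for this library places each distinct sequence once within or near a gene, with its strand and its place in the gene. Entries labelled as 5′ UTR exon were taken, and those of the snoRNA host genes Gas5 (289 entries) and Snhg1 (6 entries) were left out. This left 6640 of 54267 entries (12.2%), in 3113 of the 10847 genes on the list. An entry is a distinct sequence and not a read, the list gives no read counts, and the depth behind an entry is therefore unknown.

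DN3 thymocytes are immature cells of the T lineage, negative for both CD4 and CD8, that are passing through the first selection step of their development. The series holds 12 small RNA libraries, from 4 cell types in 3 genotypes (control, Drosha-deficient and Dicer-deficient), with 1 library per combination. Only the control DN3 library was used here. Its cells were sorted from thymi of mice aged 6-7 weeks with a backcrossed C57BL/6 background, and the labels describe these mice as Lck-cre, a transgene that expresses Cre recombinase in the T lineage. The labels do not say how many mice were used. RNA of 19 to 30 nt was cut from a gel, and adaptors joined only molecules with a phosphate at the 5′ end and a hydroxyl at the 3′ end. With 1 library there is no replicate, so no test was run. All intervals are exact 95% Clopper-Pearson intervals over distinct sequences. They cover counting error only, and overlapping sequences of 1 gene share their source.

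A 5′ phosphate and 3′ hydroxyl are the ends that RNase III enzymes leave. In the nucleus, the RNase III enzyme Drosha and its partner DGCR8 cut hairpins out of long primary transcripts, and Dicer cuts these hairpins into duplexes of mature miRNAs. Short RNAs from the starts of genes have other known sources. RNA polymerase II often pauses soon after the start and leaves short transcripts there, many mammalian promoters are also transcribed in the reverse direction, and fragments of decaying mRNA or of snoRNAs can enter a small RNA library.

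The labelled cell type was set against marker genes over the whole list. Of 14 DN3 and T lineage markers, 13 had at least 1 entry, with Ptcra, the pre-T cell receptor alpha chain, the marker at 0. Of 6 B lineage markers, 2 had entries (Cd79b with 1 and Pax5 with 2), and none of 7 myeloid, 6 erythroid and 6 stromal or epithelial markers had one. In the separate miRNA list of the same library, miR-181a, which is abundant in immature thymocytes, held 10.04% of the normalised value, while the erythroid miR-451 held 0.577% and the myeloid miR-223 0.00282%. None of the sequences on the genic list was on the miRNA list.

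The sequences that carry the main patterns are shown first. Each is printed 5′ to 3′ as listed, as DNA, and coordinates are those of GRCm38, found by matching the sequence to GENCODE transcripts. Capitals mark the bases that all printed entries of a set share. Entries on the 5′ arm of a hairpin in exon 2 of Dgcr8 (chr16:18284597-18284623, minus strand) are shown because most of them share a 5′ end.
Dgcr8 5′ arm, 23 nt: tgTGATTTCCAATAATTGAGGCA
Dgcr8 5′ arm, 21 nt: TGATTTCCAATAATTGAGGCA
Dgcr8 5′ arm, 23 nt: TGATTTCCAATAATTGAGGCAgt
Dgcr8 5′ arm, 25 nt: TGATTTCCAATAATTGAGGCAgtgg

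Entries on the 3′ arm of the same hairpin (chr16:18284562-18284586, minus strand) are shown because the last of them equals a named miRNA.
Dgcr8 3′ arm, 22 nt: tgtCTACATTAATGAAAAGAGc
Dgcr8 3′ arm, 19 nt: tCTACATTAATGAAAAGAG
Dgcr8 3′ arm, 21 nt: tCTACATTAATGAAAAGAGca
Dgcr8 3′ arm, 23 nt: tCTACATTAATGAAAAGAGcaat
Dgcr8 3′ arm, 22 nt: CTACATTAATGAAAAGAGcaat

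Staggered entries from the starts of Btg1 (chr10:96617010-96617038, plus strand, exon 1) and Lck (chr4:129558344-129558372, minus strand, exon 1) are shown as examples. They come from groups of overlapping entries with many different 5′ and 3′ ends.
Btg1, 28 nt: cccctcggaGCTGGAAATGCAACTCTCG
Btg1, 26 nt: ctcggaGCTGGAAATGCAACTCTCGg
Btg1, 19 nt: GCTGGAAATGCAACTCTCG
Lck, 26 nt: agagggAACCCAGTCAGGAGCTTGaa
Lck, 28 nt: gagggAACCCAGTCAGGAGCTTGaatcc
Lck, 18 nt: AACCCAGTCAGGAGCTTG

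Entries of the snoRNA gene Snord22 (chr19:8725961-8725990, plus strand) end at 1 base and begin at many, and the 18 sense entries of Bat1a, now called Ddx39b, lie in the snoRNA Gm22589. Printed are Bat1a entries from the beginning of the first stack (chr17:35242678-35242706, plus strand), where 6 of 13 entries share a 5′ end, and entries from the second stack (chr17:35242729-35242754, plus strand), where 4 of 5 share a 3′ end.
Snord22, 30 nt: actttgttccagAAGGAACTGTCTGAGGGA
Snord22, 24 nt: ttccagAAGGAACTGTCTGAGGGA
Snord22, 18 nt: AAGGAACTGTCTGAGGGA
Bat1a beginning, 21 nt: gCCACATGATGTTTGCATTTG
Bat1a beginning, 29 nt: gCCACATGATGTTTGCATTTGggaagtga
Bat1a beginning, 26 nt: CCACATGATGTTTGCATTTGggaagt
Bat1a close, 26 nt: ttatctATCACCCTTGACTGATGGCT
Bat1a close, 20 nt: ATCACCCTTGACTGATGGCT

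Entries of Glul (chr1:153899989-153900012, plus strand, exon 1) and Elof1 (chr9:22113988-22114008, minus strand, exon 1) are shown because 1 of each equals a mature miRNA in RefSeq.
Glul, 21 nt: TCACCCATCTCCTCTCCGCCT
Glul, 24 nt: TCACCCATCTCCTCTCCGCCTcgc
Elof1, 21 nt: TAGAGGATAGAGGTAGAGAGT

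Most 5′ UTR small RNAs ran in the direction of the gene. Of the 6640 entries, 5931 were sense (89.3%, 88.6 to 90.1) and 709 were antisense. Among all other entries of the list, 70.3% were sense (69.9 to 70.7). Coding exon entries were 85.7% sense (84.9 to 86.5), 3′ UTR entries 91.7% (90.7 to 92.7) and intron entries 68.8% (68.3 to 69.4), so the 5′ UTR lay between the other exon classes and well above introns. Sense entries alone were found in 2561 genes, antisense entries alone in 274 and both in 278.

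The lengths were less concentrated at 21 to 23 nt than those of the listed miRNAs. 5′ UTR entries had a median of 21 nt, with quartiles of 19 and 24 nt and a range of 15 to 33 nt. The most frequent length was 18 nt, with 1165 entries (17.5%, 16.6 to 18.5), below the cloned size range of 19 to 30 nt. Entries of 21 to 23 nt, the usual length of miRNAs, made up 26.9% of 5′ UTR entries (25.8 to 28.0) and 23.7% of all other entries (23.3 to 24.1). In the miRNA list of the library, the same lengths made up 56.3% of entries and 86.0% of the normalised value. Entries of 3′ UTRs had a lower share at 18 nt (8.50%), and the 3390 sense entries just upstream of genes had a share like that of the 5′ UTR (17.6%).

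**Figure D1:**
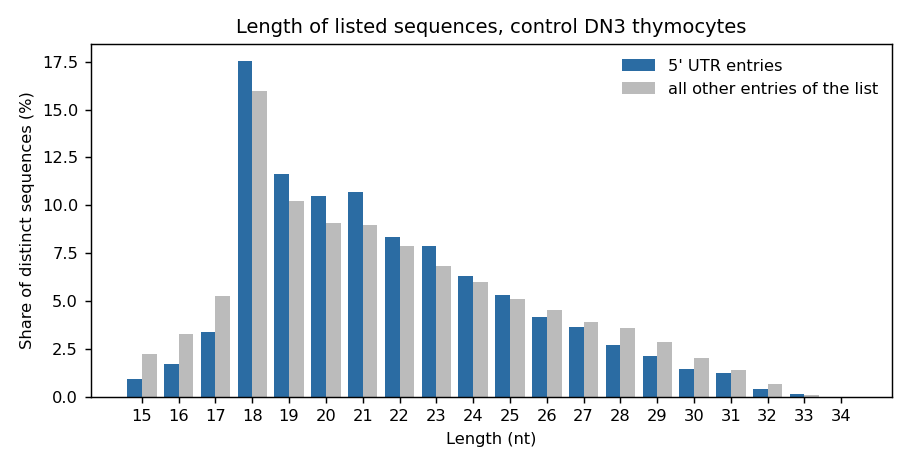
Share of distinct sequences (percent) at each length (nt) among 5′ UTR entries (blue, left bar) and all other entries of the genic list (grey, right bar) in the control DN3 library. Both have their highest bar at 18 nt, at 17.5% for 5′ UTR entries and 15.98% for the others.

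5′ UTR entries began with G more often than with any other base and were rich in GC. G began 35.3% of 5′ UTR entries, C 24.3%, A 23.8% and U 16.6% (15.8 to 17.6). U began 21.3% of all other entries, 27.6% of 3′ UTR entries and 41.1% of entries on the miRNA list. The median GC content of 5′ UTR entries was 66.7%, against 55.0% for all other entries and 47.6% for 3′ UTR entries. Entries of the 5′ flank, just upstream of genes, had values near those of the 5′ UTR. Sense flank entries began with G in 33.0% and with U in 15.9%, and their median GC content was 63.6%. For antisense flank entries these values were 31.7%, 17.9% and 60%. The part of the base composition in the first-base shares was not tested.

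Entries near the transcript start were counted against 1 GENCODE transcript for each listed accession, with base 1 as the first base of that transcript. Where GENCODE pairs several with an accession, the one that holds most of its entries was used. Ties went to the smallest median 5′ end, so the start was in part chosen from these same entries. Of the sense entries, 5341 were found in the transcript of their accession. Their 5′ ends had a median at base 74, with quartiles at bases 38 and 137. The first 50 bases held 33.8% of these 5′ ends (32.6 to 35.1), the first 100 bases held 64.4% (63.1 to 65.7) and base 1 itself held 51 entries. Exon 1 held 98.0% of placed sense entries. The 5′ UTR had a median length of 228 bases over 2821 genes. With each 5′ UTR split into 5 equal parts, the part next to the start held the 5′ ends of 28.6% of the sense entries. The part next to the coding sequence held 7.07%. A sense entry that begins near the end of the 5′ UTR runs into coding sequence. How the list labels such entries is not given in the sources used here, and the part of this edge in the contrast was not tested. The density of 5′ ends was nearly flat over the first 50 bases, where each 10-base bin held between 336 and 395 entries.

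The start that is used sets how near these entries seem to lie. Against the nearest start of any GENCODE transcript of the gene, the sense median was base 34, and 62.0% of 5′ ends lay in the first 50 bases. In the RefSeq start windows, which hold 50 bases after each start, 1339 of 5428 entries with a window began in the first 50 bases (24.7%, 23.5 to 25.8). An entry was matched to a window by at least 15 bases, so sense beginnings after base 36 could not be seen there. Where a gene has several windows, the match nearest to base 1 was kept. This value is therefore a lower limit for the nearest RefSeq start, and not for the start of the listed accession. A further 150 entries of the 1489 placed began before base 1 of the window.

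Antisense entries lay further in. Of 709, 607 were placed, with their 5′ ends at a median of base 184 (quartiles 108 and 295) and 7.74% in the first 50 bases (5.74 to 10.2). The 5′ end of an antisense entry is its end far from the transcript start, so an entry that lies wholly inside the transcript cannot have its 5′ end at the very first bases. Of the antisense entries, 75 overlapped a sense entry of the same gene, in 69 genes. The 107 overlapping pairs included 29 with at least 15 shared bases, and 0 had the 2-base 3′ overhangs at both ends that a Dicer product carries.

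**Figure D2:**
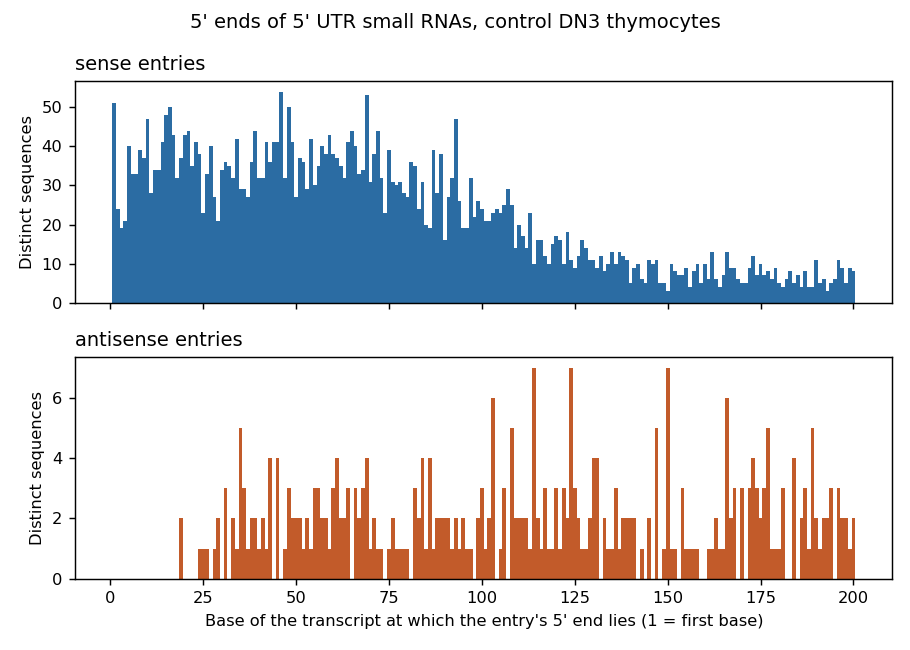
Number of distinct 5′ UTR sequences whose 5′ end lies at each of the first 200 bases of the transcript, for sense entries (upper panel) and antisense entries (lower panel, with its own scale). Sense 5′ ends are dense over the first 100 bases, which hold 64.4% of those placed, and antisense 5′ ends lie further in, with 22.7% in the first 100 bases.

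Length and composition changed little with distance from the start. The median length of sense entries was 20 or 21 nt and the median GC content between 65.0% and 66.7% in each of the 9 distance bins from base 1 to beyond base 200. The share at 18 nt ran from 14.8% beyond base 200 to 24.7% at bases 21 to 30, and the share at 21 to 23 nt from 22.97% at bases 1 to 10 to 29.5% at bases 31 to 40.

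Most genes contributed 1 sequence, and a few contributed many. Of the 3113 genes, 1769 had 1 entry, 1344 had at least 2, 708 had at least 3, 269 had at least 5 and 55 had at least 10. The 708 genes with at least 3 held 3599 entries (54.2%). The 30 genes with the most entries, down to 12 per gene, held 535 (8.06%).

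**Figure D3:**
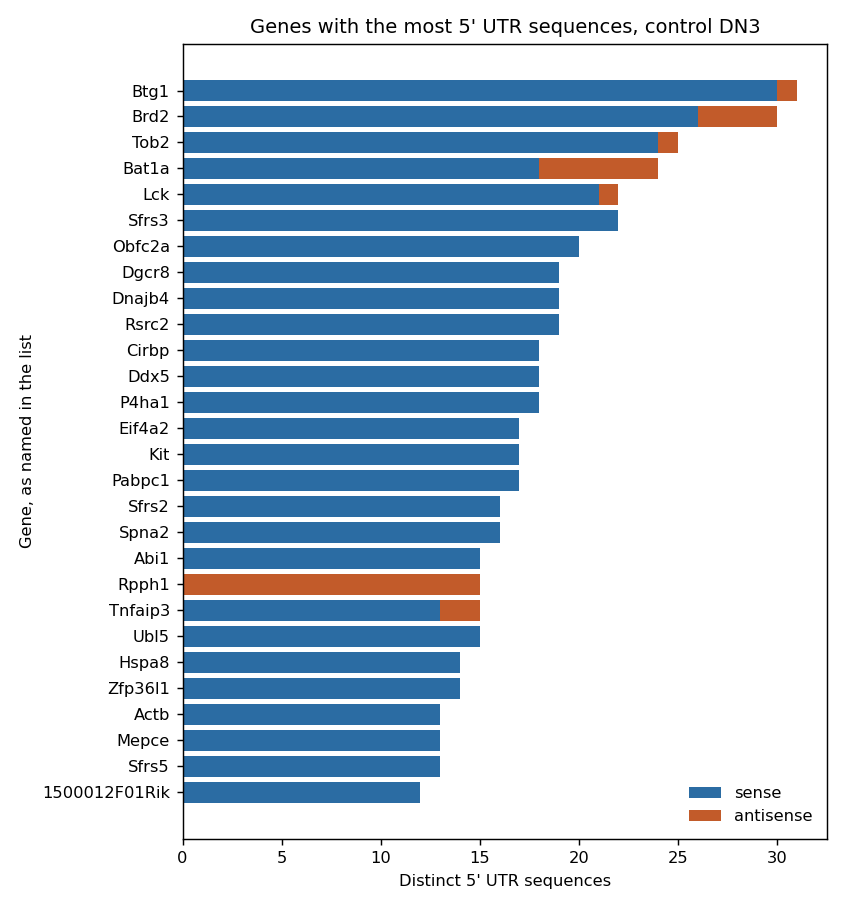
Number of distinct 5′ UTR sequences in 28 of the 30 genes with the most, split into sense (blue) and antisense (orange), with genes named as on the list. Btg1 leads with 31, and Rpph1 is the gene drawn with antisense entries alone (15).

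Overlapping sequences formed stacks, defined as at least 3 entries of 1 gene and strand that overlap in a chain. There were 409 stacks, 398 of them sense, with 2109 entries (31.8%) in 391 genes. A stack covered a median of 37 bases (quartiles 30 and 45). A further 517 overlapping pairs and 3497 entries with no overlapping neighbour made up the rest. In 365 sense stacks, at least 1 entry was placed on the paired transcript. The first placed entry began in the first 50 bases in 175 of these (47.9%) and at base 1 itself in 16. Some of these stacks also hold entries that were not placed, which can lie before base 1.

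Few stacks had over 50% of their distinct sequences at 1 end. A product with both ends fixed counts as 1 entry however often it was read. These counts therefore do not show how reads were spread over the ends. Of 153 stacks with at least 5 entries, 3 had over 50% of their entries at a single 5′ end and 2 at a single 3′ end. In these 153 stacks the median ratio of distinct 5′ ends to entries was 0.833, and the same ratio for 3′ ends was 0.833. The 3 with a common 5′ end were in Rpsa, a ribosomal protein gene (4 of 7 entries), Lats1, a kinase of the Hippo pathway (3 of 5), and Mpp5, a cell polarity gene (3 of 5). The 2 with a common 3′ end were Snord22 (8 of 8) and Bat1a (4 of 5), both inside annotated snoRNAs. The 2 stacks of Dgcr8, which hold the hairpin entries shown above, fell below the 50% limit. Their most frequent 5′ ends held 4 of 9 and 4 of 10 entries.

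The largest stack lay at the start of Btg1, an anti-proliferative gene of resting lymphocytes. Btg1 had 31 entries, 30 sense and 1 antisense, with lengths of 18 to 31 nt. Its stack held 27 of them over 51 bases, with 5′ ends at 19 different bases between bases 1 and 31. From the RefSeq start these were bases 6 to 36. No single 5′ end of this stack held more than 4 entries, and the 3 sequences printed above begin at different bases. Btg2, its relative, had 11 entries, all sense, in a stack that began between bases 2 and 24. Tob2, another gene of the same family, had 25 entries, of which 23 formed a stack with 5′ ends between bases 213 and 246 of its paired transcript, or bases 49 to 71 from the nearest annotated start.

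Lck, the kinase that starts signalling from the T cell receptor, led the T lineage genes with 22 entries (21 sense, 1 antisense). Of these, 18 formed a stack of 36 bases with 9 different 5′ ends at bases 20 to 35 of the GENCODE transcript, which are bases 1 to 16 from the RefSeq start. The first 4 entries thus began exactly at that start. Lck also had 17 sense and 13 antisense entries in the flank upstream of the gene. Kit, the stem cell factor receptor of early thymocytes, had 17 entries, all in a stack with 5′ ends at bases 76 to 111 of the GENCODE transcript, or bases 1 to 36 from the RefSeq start.

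Other T lineage genes had smaller sets. Of 26 T lineage genes on a list assembled for this comparison, 23 were on the genic list. Of these, 16 (69.6%) had 5′ UTR entries, 78 in all, while 28.7% of all genes on the genic list had any. The T lineage list was assembled with earlier results of these data known. In the 23 genes, entries of any kind ran from 3 (Rag2) to 70 (Ets1) per gene, while the genic list holds 54267 in 10847 genes. The part of these totals in the share was not tested. Gata3, a transcription factor of T cell commitment, had 8 entries, 6 sense and 2 antisense, and 5 formed a stack that began between bases 15 and 31. Hes1, a target of Notch signalling, had 8 entries, 4 on each strand, with a sense stack whose 5′ ends lay at bases 23 to 28 and an antisense stack with 5′ ends at bases 96 to 109. Cd3g, a chain of the T cell receptor complex, had 7 sense entries in a stack that began between bases 34 and 89. Ets1, a lymphoid transcription factor, also had 7 entries. Rag1 and Dntt, which act in receptor gene rearrangement, Il2ra, the interleukin 2 receptor alpha chain, and Notch1 had 4 each. Bcl11b, Tcf7, Lef1, Satb1, Thy1, Cd3d and Rag2 were on the genic list with no 5′ UTR entry.

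Sfrs3, Sfrs2 and Sfrs5, which encode splicing factors of the SR family now named Srsf3, Srsf2 and Srsf5, had 22, 16 and 13 entries, all sense. All 22 entries of Sfrs3 formed 1 stack, with 5′ ends at bases 46 to 81 of the paired transcript, or bases 1 to 20 from the nearest annotated start. The 18 of them placed from the RefSeq start lay at bases 14 to 33. The RNA helicases Ddx5 and Bat1a had 18 and 24 entries, the RNA-binding protein Cirbp 18, and Rsrc2 19. Pabpc1, the poly(A)-binding protein, had 17 entries, of which 16 began at bases 12 to 28. Mepce, which caps the 7SK RNA, had 13. The chromatin reader Brd2 had 30 entries (26 sense, 4 antisense), with 22 in a single stack of 47 bases. None of these 22 was placed on the paired transcript. Their 5′ ends lay at bases 793 to 822 from the nearest annotated start.

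The remaining leading genes had mostly sense entries as well. Obfc2a, now Nabp1, a single-stranded DNA-binding protein, had 20, of which 18 began at bases 1 to 34. The heat shock proteins Dnajb4 and Hspa8 had 19 and 14, the collagen hydroxylase subunit P4ha1 18, the translation factor Eif4a2 17, the spectrin gene Spna2 16 and the actin regulator Abi1 15. Tnfaip3, an inhibitor of NF-kappaB signalling, had 13 sense and 2 antisense entries, and its 13 sense entries began at bases 51 to 66. Ubl5 had 15, Zfp36l1, which binds AU-rich mRNA, 14, and Actb 13. The gene listed as 1500012F01Rik, now Zfas1, a snoRNA host, had 12 sense entries in a single stack.

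Other gene groups were compared by the same count, beside the 28.7% of all genes on the genic list that had 5′ UTR entries. Of 16 early response and growth genes, all on the genic list, 10 had 5′ UTR entries (62.5%), with 81 in all, led by Btg1 (31), Zfp36l1 (14), Btg2 (11), Dusp1 (7), Dusp2 (6) and Myc (5). Of 91 listed ribosomal protein and translation genes, 21 had entries (23.1%), led by Pabpc1 (17), Rps20 (7) and Rpsa (7). Of 61 listed histone genes, 12 had entries (19.7%), led by Hist2h2bb (11). Of 10 listed snoRNA host genes other than Gas5 and Snhg1, 4 had entries: Eif4a2 (17), Hspa8 (14), Ncl (8) and Nop56 (3). The list of host genes compared here is not complete, and the host 1500012F01Rik (12 entries) is not on it. 5′ UTR length, mRNA level and entries of any kind per gene were not compared between these groups. Their part in these shares was not tested.

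Among the genes of small RNA processing, Dgcr8 had the most entries, and their 5′ ends fell at few positions. DGCR8 is the RNA-binding partner of Drosha, and a hairpin in the 5′ UTR of its own mRNA is a known substrate of the enzyme. Of 7 genes of this group on the genic list, 3 had 5′ UTR entries, while 28.7% of all genes on that list had any. There were 19 in Dgcr8 and 1 each in Eif2c2 (Argonaute 2) and Xpo5 (the exporter of miRNA precursors). Rnasen, which encodes Drosha, and Dicer1 had 9 and 7 entries on the genic list and 0 in the 5′ UTR.

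All 19 Dgcr8 entries were sense and lay in exon 2, between bases 199 and 279 of a transcript with a 5′ UTR of 424 bases. Of these, 15 lay in a hairpin annotated in RefSeq as Gm24572 (chr16:18284550-18284637, minus strand), with 5 on the 5′ arm and 10 on the 3′ arm. On the 5′ arm, 4 entries began at base 220 and 1 at base 218, and their lengths ran from 21 to 25 nt. On the 3′ arm, entries began at bases 255 to 258 and were 19 to 23 nt long. The other 4 entries lay before the arm, and 3 of them ended at base 219, directly next to the base where 4 of the 5′ arm entries began. The annotated mature 5′ miRNA begins 2 bases before that position, at the 5′ end of the single entry of base 218, and 1 entry equals the annotated mature 3′ miRNA, mmu-miR-3618-3p. Outside the 5′ UTR, Dgcr8 had 25 entries in coding exons, 5 in introns and 2 in the 5′ flank.

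**Figure D4:**
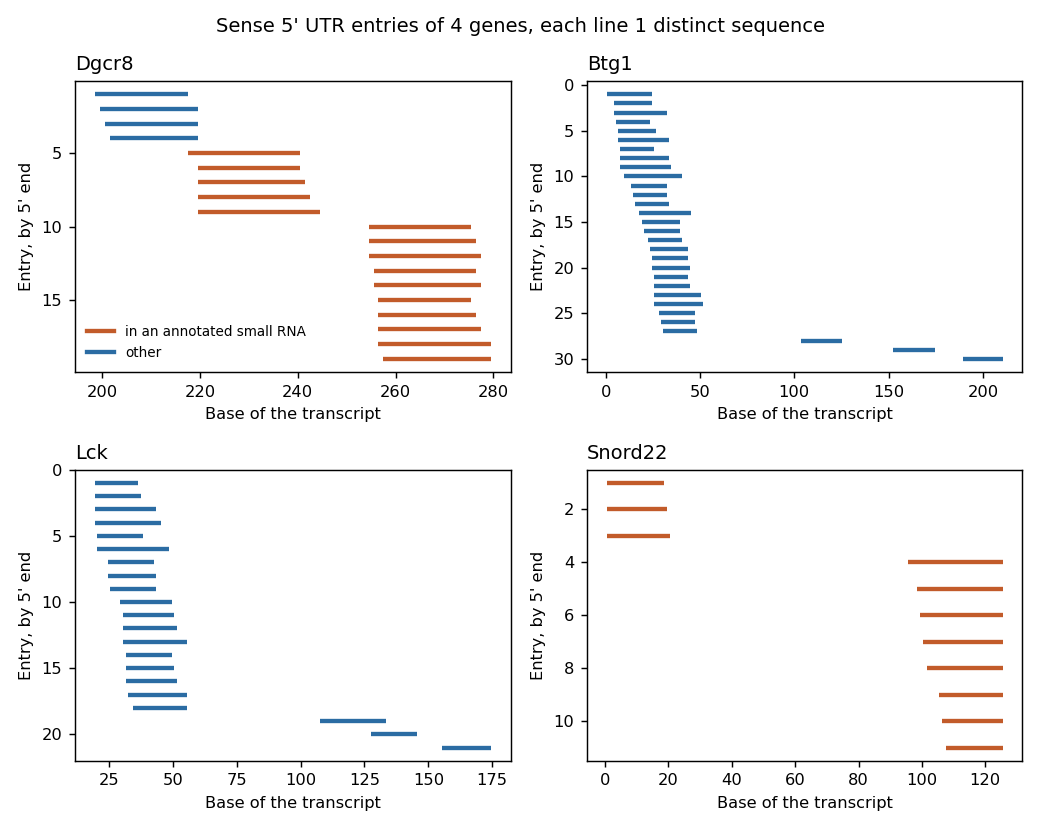
Sense 5′ UTR entries of Dgcr8, Btg1, Lck and Snord22, each line 1 distinct sequence from its first to its last base, counted along the paired transcript, with orange for entries inside an annotated small RNA and blue for others. The 15 orange Dgcr8 entries form 2 blocks with nearly common 5′ ends, the Btg1 and Lck entries form staggered rows near the start, and the lower block of Snord22 ends at 1 base.

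Entries inside annotated small RNAs were few. GENCODE or RefSeq small RNA annotation held 92 of the 6640 entries (1.39%), in 18 genes. Besides Dgcr8, they lay in Bat1a (18 in the snoRNA Gm22589), Snord22 (11), Rpph1 (9, in the RNA of RNase P), Rnu12 (7, in the U12 spliceosomal RNA) and Glul (7, in Mir8114), among others. The 15 Rpph1 entries are called antisense on the list, while 9 of them match GENCODE's Rpph1 in the sense direction. The 11 entries of Snord22 lay at its ends: 3 began at base 1 and 8 ended together at base 125. In RefSeq hairpins there were 34 entries in 7 genes. Of the 7 Glul entries in Mir8114, 3 shared the 5′ end of the mature miRNA and 1 equalled it. Both Elof1 entries began at the 5′ end of a mature miRNA of Mir7084, and 1 equalled it, as did the single entry of Alg10b for Mir7648.

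The share of genes with reverse entries upstream was higher where a gene had more 5′ UTR entries. Antisense entries in the 5′ flank were listed for 41.6% of genes with at least 5 5′ UTR entries, 37.6% with 3 or 4, 31.3% with 2 and 24.99% with 1. Sense entries in the same flank were listed for 27.9%, 24.6%, 21.5% and 19.7%. The same order held for coding exon entries (56.9%, 45.6%, 41.7% and 34.3%) and for intron entries (82.9%, 74.0%, 73.1% and 66.8%). Expression level and gene length were not measured, and their part in these shares was not tested.

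The start regions of these genes were rich in GC and CpG. RefSeq start windows, from 250 bases before to 50 bases after a start, had a median GC content of 62.0% in genes with at least 5 entries, 61.3% in all genes with entries and 52.7% in all 32851 windows. The median number of CpG pairs per window was 24, 22 and 7 in the same order. All windows together include those of genes that are not on the genic list. Genes on the list without 5′ UTR entries were not compared. The letters TATAAA, searched on both strands with no other motif, occurred in 12.1% of windows of genes with at least 5 entries, 7.11% of windows of genes with entries and 13.6% of all windows.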

How the data were processed

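One deposited list of genic small RNA sequences, from the control DN3 library, was used. Per the file headers, it gives for each distinct sequence the gene, chromosome, strand, start, end, orientation and genic category. Start and end are positions, with the end minus the start equal to the length. Which aligner and genome build were used is not given in the sources used here, but the positions differ from GRCm38, in which 125 of 5732 placed sense entries were equal. Library depth is unknown. The miRNA list of the library holds mapping counts normalised by the authors, per the file headers, and these whole numbers were treated as a score (total 994020 over 1067 deposited entries).

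Accessions were matched to RefSeq genes of GRCm38.p6 (all 6640 entries, 948 with an outdated symbol). Sequences were matched without mismatch to RefSeq start windows, RefSeq hairpins and GENCODE M21 transcripts, with 1 transcript paired per accession. Of the entries, 282 also occur in a transcript of another gene, so their gene is uncertain. Position finding and stacking were tested on simulated data. Python 3.11.15, pandas 2.3.3 and scipy 1.17.1 were used. The named genes are those with at least 5 entries, at most 30, most entries first, plus Dgcr8, Drosha, Dicer1 and members of the gene lists. The members and lists were chosen with earlier results of these data known. A few genes that meet this rule are not reported here. The other lists of the series were not used here. Alternatives in stacking, start, length class and gene weighting are given in the closing section.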

Additional observations from a re-analysis of the deposited data

How the results depend on the processing

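No paired analysis was possible because 1 library was used and no test was run. There were 49 alternative values for the 6 main results. Of these, 32 stayed within the 95% interval of the value (or, for the gene count, within 1.5 times) and 17 moved. The share that begins with U did not move in any of its 8 alternatives. The alternatives of each result include a setting that leaves out repeated sequences. The list holds 0 repeated sequences, so this setting could not move a value, and its values are counted among the 32. The cause of a move was not tested unless the setting itself gives it. The sense share of 89.3% was 85.3% with each stack counted once and 87.6% with each gene counted once. The share in the first 50 bases, 24.7% by start windows, was 19.6% with each stack once, 21.9% with each gene once, 17.3% in the first 25 bases and 26.4% for sense entries alone. With settings chosen after seeing the data it was 31.2% by the paired transcript, 57.5% by the nearest GENCODE start and 33.1% by distance from the nearest RefSeq start. The nearest of several GENCODE starts can only be as near as the paired one or nearer. The share at 21 to 23 nt, 26.9%, was 43.7% for 20 to 24 nt and, chosen after seeing the data, 36.0% among entries of 19 to 30 nt. The 708 genes with at least 3 sequences became 1344 with at least 2 and 269 with at least 5. The share in stacks, 31.8%, was 34.3% with Gas5 and Snhg1 kept, 37.4% with gaps of up to 20 bases, 47.3% with stacks of at least 2 and, chosen after seeing the data, 27.1% among entries of 19 to 30 nt. Leaving out entries shared with another gene, or the 92 in annotated small RNAs, both chosen after seeing the data, moved none of the 6 values. Without read counts, a sequence read once weighs as much as one read often, and levels cannot be compared between genes.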
